A study of Rattus norvegicus with 8 samples.

Results

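Matricellular glycoproteins are secreted proteins that sit in the matrix of a tissue and change how cells hold on to it, rather than forming its load-bearing fibres. Their transcripts were examined in rat Achilles tendon at rest and directly after running. The genes were taken by symbol from the deposited table: the tenascins Tnc and Tnxb, the thrombospondins Thbs1, Thbs2, Thbs3 and Thbs4, periostin (Postn), Sparc and fibronectin (Fn1). Of the 9 genes, 8 had a row among the 15590 genes of the table, and all 8 were among the 13863 genes that passed the filter on low values and were tested. Tnxb was not analysed here.

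The study asked how the Achilles tendon responds to treadmill running, and RNA sequencing profiled its transcripts. All rats were wild type, and the methods of the study describe the treadmill animals as male SD rats aged 8 to 10 weeks. The 0 h p.r. (post-run) group of 4 libraries came from rats killed directly after running for 1 h at 20 m/min up an incline of 10 degrees. The naïve control (NC) group of 4 libraries came from rats that did not run and kept their usual cage activity. In both groups the tendon was that of the right leg, and polyadenylated RNA was sequenced. Before the run the treadmill rats had a short session at rising speed, and airflow and mild electric stimuli kept them running, so these cannot be told apart from the loading of the tendon. For the one-time treadmill experiment the methods place the death of the controls together with a later post-run group, while the labels describe the sequenced controls as killed immediately. If the former holds for these controls, time of day and running cannot be told apart. Each library was listed as a separate replicate, without a statement of whether tendons were pooled, so the p-values measure the spread between these libraries.

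In adult tendon, matricellular proteins are few next to collagen and are known to be made in larger amounts during development, loading and repair. Thrombospondins bind cells, collagen, calcium and growth factors, and thrombospondin-1 is a known activator of latent TGF-beta. Tenascin-C weakens cell adhesion and is abundant at loaded junctions, periostin helps collagen fibrils to assemble and crosslink, SPARC binds collagen and assists its folding and deposition, and fibronectin gives cells a first network on which other matrix is laid down.

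The libraries held between 10660131 and 17464752 reads in the listed genes, as recovered from the steps between the deposited values. The tendon label was checked against 8 tendon markers, among them Scx, Mkx, Tnmd and Fmod. All 8 were present, with a summed level of 3842 to 7411 FPKM in NC and 3633 to 6662 FPKM in 0 h p.r. Some libraries of 0 h p.r. stood apart in their levels of markers of other tissues. The summed skeletal muscle markers (8 of 10 with a row) were 4728 to 7672 FPKM in NC. In 0 h p.r. replicates 1 to 4 they were 34999, 5967, 15922 and 1059 FPKM. The 8 adipocyte markers summed to 3028 to 6179 FPKM in NC and to 966 to 2238 FPKM in 0 h p.r., and 5 of them were past both thresholds, lower. The summed bone markers and the summed cartilage markers were each highest in 0 h p.r. replicate 4. In tissue RNA like this, fewer cells of a type and less RNA per cell cannot be told apart.

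The 8 genes did not move as a group. Levels are given in FPKM, fragment counts scaled for gene length and for depth, which allows a comparison between genes of different length. A gene was called at an adjusted p under 0.05 in limma and a fold of at least 2. Of the 8 genes, 1 was called higher after running (Thbs1) and 1 lower (Postn), while 1.8% of all tested genes were called higher and 0.894% lower (2.7% in either direction). No further member of the 8 had an adjusted p under 0.05 at any fold, which 5.72% of the tested genes had (3.49% higher and 2.23% lower). The median log2 fold change of the 8 genes was 0.54, with 5 above 0 and 3 below, and that of all tested genes was 0.00 when rounded. The groups did not overlap for Thbs1 and Postn only, while 8.15% of tested genes did not overlap and were higher and 7.47% did not overlap and were lower.

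**Figure D1:**
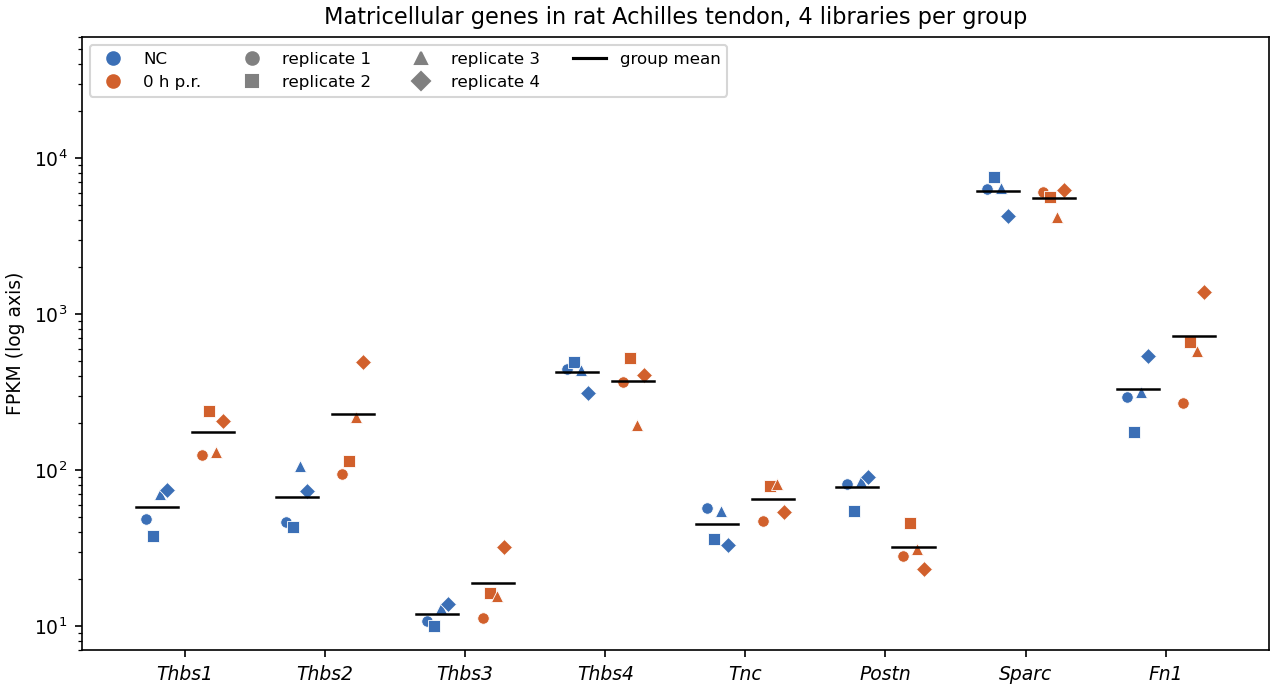
FPKM of the 8 genes in each library, on a log axis, with NC in blue, 0 h p.r. in orange, a symbol for each replicate number and a bar at the group mean (n = 4). All Thbs1 points of 0 h p.r. lie above those of NC and all Postn points lie below, while the groups of the other 6 genes overlap.

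Thbs1 (ENSRNOG00000045829) encodes thrombospondin-1, a trimeric protein of platelets, injured tissue and mechanically loaded cells. Its level in NC was 48.8, 37.6, 69.7 and 74.0 FPKM in replicates 1 to 4, and in 0 h p.r. it was 125, 238, 129.8 and 208 FPKM. Each of the 4 libraries after running lay above each of the 4 controls, and the lowest of them was well clear of the highest control. The mean was 57.6 ± 17.2 FPKM in NC and 175 ± 56.4 FPKM in 0 h p.r. (SD, n = 4). The fold was 3.01 with a 95% interval of 1.94 to 4.67, on the scale of log2(FPKM + 0.5), where the change was 1.59 (SE 0.28, limma adjusted p 0.0159). An exact permutation test over the 70 ways to divide the libraries gave a two-sided p of 0.0286, the smallest that this design allows. By mean level, Thbs1 was at rank 1190 of 15590 genes in NC and at rank 394 in 0 h p.r.

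The call of Thbs1 rested on single libraries. Dropping NC replicate 1 gave a limma adjusted p of 0.0561 and a log2 fold change of 1.53, and dropping 0 h p.r. replicate 2 gave 0.0518 and 1.43. With all 8 libraries kept, the call was lost with the replicate number as a block (limma adjusted p 0.0531). It was also lost in the test against a fold of 1.5 (limma adjusted p 0.266).

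Thbs1 was the member whose promoter is shown in full, because it changed and because several short motifs lie close to its start. The sequence is the 250 bases before the RefSeq gene start in the rat build GRCr8, at chr3:125510000-125510249 on the plus strand. The capitals mark, from left to right, a GC box (GGGCGG), a GC box on the other strand, a CCAAT box on the other strand and the TEAD motif GGAATG.
Thbs1 promoter: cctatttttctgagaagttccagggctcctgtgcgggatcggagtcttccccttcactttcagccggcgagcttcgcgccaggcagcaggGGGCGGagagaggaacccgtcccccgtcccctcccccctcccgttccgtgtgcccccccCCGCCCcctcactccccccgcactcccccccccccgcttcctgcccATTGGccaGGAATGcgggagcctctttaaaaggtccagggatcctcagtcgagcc
Counted back from the start, the TEAD motif lies at -47 to -42 and the CCAAT box at -55 to -51, and neither overlaps the other. The share of G and C was 67.6%. Among 33469 rat promoters of the same length, GGAATG on either strand was in 12.1%, GGGCGG in 30.5% and CCAAT in 34.0%. A match is a description of letters only.

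Thbs1 profiles were closest to those of Egr3, Errfi1 and Frzb. The measure was the root mean square difference between log2 profiles over the 8 libraries, each centred on its own mean, among 13054 protein-coding genes. It was 0.175 for Egr3, an immediate-early transcription factor, 0.177 for Errfi1, a feedback inhibitor of the EGF receptor, and 0.179 for Frzb, a secreted Wnt antagonist. Egr3 was at 3.03 ± 1.40 FPKM in NC and 9.25 ± 3.47 FPKM in 0 h p.r. (SD, n = 4). Errfi1 was at 71.7 ± 21.6 and 179.8 ± 54.1 FPKM, and Frzb at 16.1 ± 6.27 and 52.9 ± 12.5 FPKM. Because these genes were picked for their likeness to a called gene over both groups, their difference follows from the choice and is given without a test.

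Thbs2 (ENSRNOG00000010529) encodes thrombospondin-2, the closest relative of thrombospondin-1, known for its part in collagen fibril assembly. It had 46.7, 43.4, 105 and 73.2 FPKM in NC, and 94.5, 114, 219 and 490.2 FPKM in 0 h p.r. Libraries 2, 3 and 4 after running lay above every control, but replicate 1 lay below NC replicate 3, and replicate 4 stood far above the rest. The mean was 67.2 ± 28.8 FPKM in NC and 229.5 ± 182 FPKM in 0 h p.r. (SD, n = 4). The fold of 2.92 was close to that of Thbs1 in size, but its 95% interval was wide, 1.33 to 6.44, and the limma adjusted p was 0.110 (log2 fold change 1.55, SE 0.51). The exact permutation p was 0.0571, two-sided.

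Thbs2 was called in 2 of the alternative fits. With the skeletal muscle markers as a covariate the limma adjusted p was 0.0460, and relative to the tendon markers of the same library it was 0.00518. The SE relative to the tendon markers was nearly the same for Thbs2 (0.381), Thbs1 (0.379) and Postn (0.371). Without that scaling these were 0.505, 0.280 and 0.227. The 0.00518 thus reflects a spread pooled over genes more than the spread of Thbs2 itself. Without 0 h p.r. replicate 4 its log2 fold change was 1.08 (limma adjusted p 0.113). Within 0 h p.r. the highest Thbs2 level was 5.18 times the lowest, and in NC it was 2.43 times the lowest.

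Thbs3 (ENSRNOG00000059903), a pentameric thrombospondin of skeletal tissue, had the lowest mean level of the 8 genes in both groups. Its level in NC was 10.8, 10.1, 13.0 and 13.8 FPKM, and in 0 h p.r. 11.2, 16.3, 15.7 and 32 FPKM. Only replicate 1 after running overlapped the controls, and replicate 4 was again the highest. The difference did not pass the test, with means of 11.9 ± 1.77 and 18.8 ± 9.08 FPKM (SD, n = 4), a log2 fold change of 0.54 (95% interval -0.09 to 1.17) and a limma adjusted p of 0.290. Without 0 h p.r. replicate 4 the Thbs3 log2 fold change was 0.26. The lowest count behind a Thbs3 value was 314 reads, which by counting error alone leaves it within 5.64% (1 SD).

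Thbs4 (ENSRNOG00000012471) encodes thrombospondin-4, a pentameric protein that is abundant in tendon and lies on its collagen fibrils. It had 447, 495, 436 and 312 FPKM in NC, and 366, 521, 196 and 407 FPKM in 0 h p.r. The groups overlapped over most of their range, and replicate 3 after running was the lowest of the 8 libraries. The mean was 423 ± 78.0 FPKM in NC and 373 ± 135 FPKM in 0 h p.r. (SD, n = 4), with a log2 fold change of -0.25 (95% interval -0.92 to 0.42) and a limma adjusted p of 0.692. Without 0 h p.r. replicate 3 the log2 fold change was 0.035, so its sign rested on that library. The interval holds falls of up to 1.89-fold and rises of up to 1.34-fold.

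The make-up of the summed Thbs1 to Thbs4 transcripts differed between the groups. Of the summed FPKM of Thbs1 to Thbs4, Thbs4 took 80.8%, 84.5%, 69.8% and 66.0% in NC, and 61.3%, 58.6%, 34.9% and 35.8% in 0 h p.r. The Thbs4 share was thus lower in every library after running than in any control, although the Thbs4 level was not called. The Thbs1 share was 6.42% to 15.6% in NC and 18.3% to 26.7% in 0 h p.r., also without overlap. Thbs2 had a share of 7.41% to 16.9% in NC and 12.8% to 43.1% in 0 h p.r., which overlapped. Replicates 3 and 4 after running had the high Thbs2 shares, 39.1% and 43.1%, and replicates 1 and 2 had shares within the NC range. The summed level of the 4 genes was 473 to 624 FPKM in NC and 560.3 to 1137 FPKM in 0 h p.r. These shares follow from levels already tested and are given without a test.

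**Figure D2:**
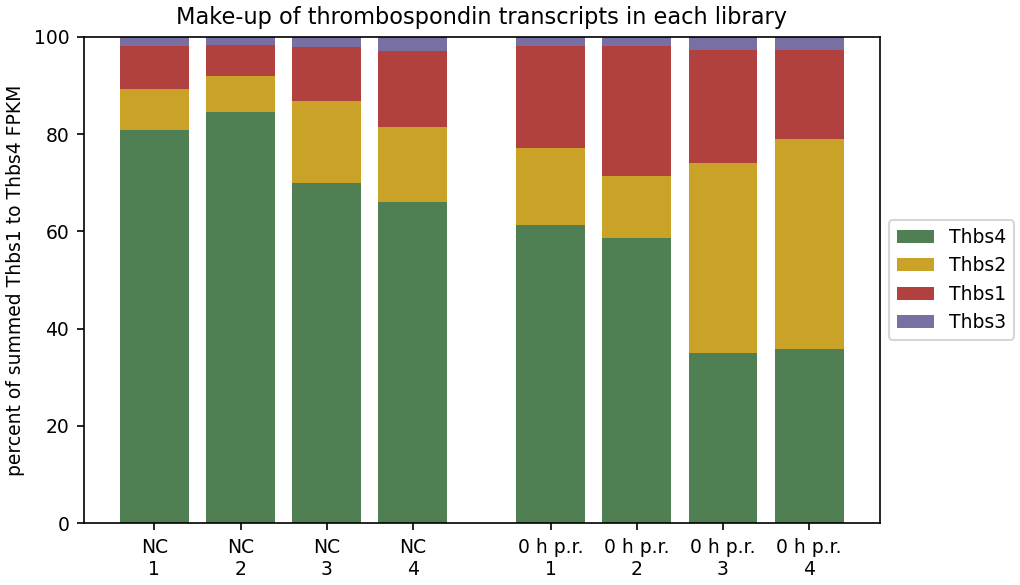
Share of the summed Thbs1 to Thbs4 FPKM taken by each gene (percent, stacked bars, 1 bar per library). Thbs4 takes 66.0% to 84.5% in the NC libraries and 34.9% to 61.3% in the 0 h p.r. libraries, and the Thbs2 share separates replicates 3 and 4 of 0 h p.r. from replicates 1 and 2.

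Tnc (ENSRNOG00000058645) encodes tenascin-C, which is known to respond to mechanical load in fibroblasts. Its level was 56.9, 36, 54.7 and 33.1 FPKM in NC and 46.9, 78.5, 81.9 and 53.6 FPKM in 0 h p.r. Replicates 2 and 3 after running lay above every control, and replicates 1 and 4 lay within the control range. The mean was 45.2 ± 12.4 FPKM in NC and 65.2 ± 17.6 FPKM in 0 h p.r. (SD, n = 4). The difference was not called (log2 fold change 0.53, 95% interval -0.03 to 1.08, limma adjusted p 0.245, exact permutation p 0.171).

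Fn1 (ENSRNOG00000014288) encodes fibronectin, the ligand of integrin alpha5 beta1. It had 294, 174, 316 and 535 FPKM in NC, and 269, 663, 581 and 1389 FPKM in 0 h p.r. Replicates 2, 3 and 4 after running exceeded every control, while replicate 1 was below 3 of the 4 controls. The mean was 329.9 ± 150.4 FPKM in NC and 725 ± 474 FPKM in 0 h p.r. (SD, n = 4). The fold of 2.02 had a 95% interval of 0.933 to 4.36 and a limma adjusted p of 0.265 (log2 fold change 1.01, SE 0.49, exact permutation p 0.171). Fn1 was thus not called here. The study, which tested counts with DESeq2 at the same thresholds, lists Fn1 among its differentially expressed genes at 0 h p.r. Without 0 h p.r. replicate 4 the log2 fold change was 0.62, and without 0 h p.r. replicate 1 it was 1.41 (limma adjusted p 0.404 and 0.115).

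Postn (ENSRNOG00000012660) was the only gene of the 8 that was called lower. Periostin is a TGF-beta-inducible protein of tendon, periosteum and ligament that binds collagen and integrins. In NC it had 81.4, 54.2, 85.0 and 90.4 FPKM, and in 0 h p.r. it had 28.2, 45.4, 31.1 and 23.4 FPKM. Every library after running lay below every control, with 0 h p.r. replicate 2 and NC replicate 2 nearest to each other. The mean was 77.7 ± 16.1 FPKM in NC and 32 ± 9.49 FPKM in 0 h p.r. (SD, n = 4), a level 2.43-fold lower after running (95% interval 1.70 to 3.47). The log2 fold change was -1.28 (SE 0.23, limma adjusted p 0.0162), and the exact permutation p was 0.0286. The limma adjusted p became 0.0561 without NC replicate 1 (log2 fold change -1.25) and 0.0519 without 0 h p.r. replicate 3 (-1.28). With all 8 libraries, it was 0.0810 with the replicate number as a block and 0.433 in the test against a fold of 1.5.

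The Postn promoter is shown as a 30-base window, since it held a TATA box (TATAAA, in capitals) and no other of the 8 motifs searched. The window is at chr2:140678016-140678045 on the plus strand of GRCr8, from RefSeq, and the TATA box lies at -44 to -39.
Postn window: cTATAAAttcagctctctagaacacaggcc
TATAAA on either strand was in 12.9% of the 33469 rat promoters. The promoters of 6 of the 8 genes were matched. AP-1 (TGANTCA, in 6.34% of all promoters), CRE (TGACGTCA, 1.59%), EGR (GCGNGGGCG, 4.29%) and the CArG box (1.5%) were in none of these 6 windows of 250 bases. The TEAD motif was also in the Thbs4 and Sparc windows. TATAAA was also in that of Tnc, but at -208 to -203, much farther from the start than in Postn. By presence alone, without regard to position, no motif separated the 2 called genes from the rest. The promoters of Thbs2 and Fn1 were not matched.

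Zfp366, Nuak1 and LOC681355 had the profiles closest to Postn, at root mean square differences of 0.288, 0.306 and 0.306. Zfp366, a zinc finger gene, was at 7.23 ± 2.07 FPKM in NC and 2.99 ± 0.524 FPKM in 0 h p.r. (SD, n = 4). Nuak1, an AMPK-related kinase, was at 24.6 ± 3.75 and 12.5 ± 2.75 FPKM, and LOC681355 at 4.39 ± 0.644 and 2.14 ± 0.215 FPKM, again without a test.

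Sparc (ENSRNOG00000012840) was by far the most abundant of the 8 genes, at rank 13 of 15590 genes by mean level in NC and rank 11 in 0 h p.r. It had 6318, 7591, 6433 and 4283 FPKM in NC, and 6022, 5646, 4191 and 6250 FPKM in 0 h p.r. The groups overlapped throughout, with means of 6156 ± 1375 and 5527 ± 925 FPKM (SD, n = 4). The log2 fold change was -0.14 (95% interval -0.96 to 0.68, limma adjusted p 0.873), an interval that still allows a change of 1.95-fold lower or 1.6-fold higher. Sparc made up 79.1% to 89.9% of the summed FPKM of the 8 genes in NC and 70.6% to 86.5% in 0 h p.r. The 8 genes together took 0.938% to 1.3% of all FPKM in NC and 0.840% to 1.53% in 0 h p.r. The 0.938% was that of NC replicate 2, where all FPKM summed to 900138, against 554130 to 580360 in the other NC libraries.

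**Figure D3:**
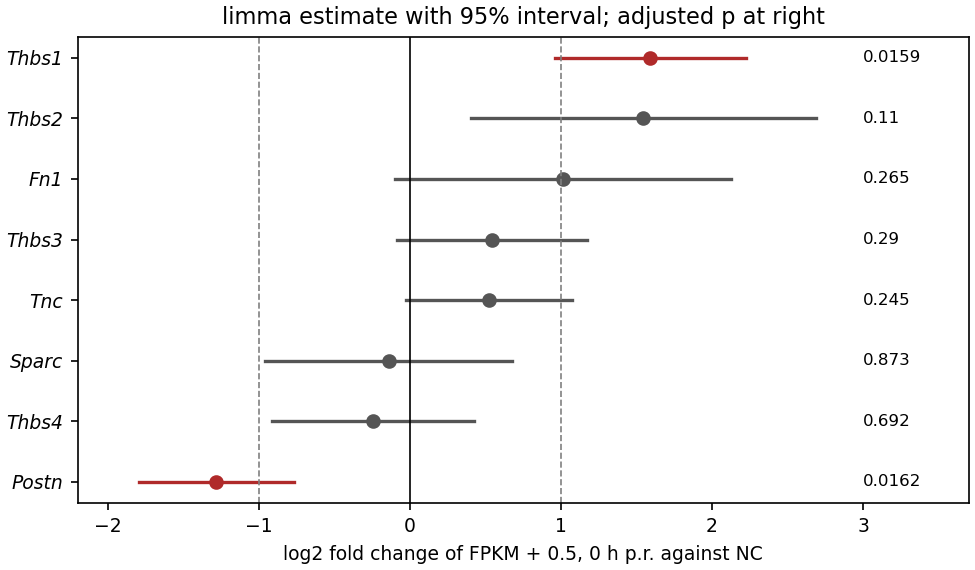
Difference of the group means of log2(FPKM + 0.5), 0 h p.r. minus NC, for the 8 genes (points) with 95% intervals from limma (lines), red for the called genes, and the adjusted p at the right. The dashed lines mark a fold of 2 in either direction. Thbs1 (1.59) and Postn (-1.28) have intervals that exclude 0 and pass the adjusted p, while the interval of Thbs2 excludes 0 but its adjusted p is 0.110.

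The order of the levels shifted with these changes. In NC the means ran from Sparc down through Thbs4, Fn1, Postn, Thbs2, Thbs1 and Tnc to Thbs3. In 0 h p.r. they ran Sparc, Fn1, Thbs4, Thbs2, Thbs1, Tnc, Postn, Thbs3, so Postn went from the fourth place to the seventh. Of neighbours in the NC order, the ranges did not overlap for Sparc and Thbs4, Fn1 and Postn, and Tnc and Thbs3, and all others overlapped. After running they did not overlap for Sparc and Fn1, Thbs1 and Tnc, and Tnc and Postn. Thbs1 was below Postn in every NC library, at 0.600 to 0.821 times its level, and above it in every 0 h p.r. library, at 4.17 to 8.88 times.

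Within a group, some of the genes had their low or high values in the same library, and others did not. Thbs1, Thbs2, Thbs3, Fn1 and Postn had their lowest NC value in replicate 2, where Thbs4 and Sparc had their highest. In 0 h p.r., Thbs1, Thbs2, Thbs3, Fn1 and Tnc were lowest in replicate 1, while the highest value was in replicate 4 for Thbs2, Thbs3, Fn1 and Sparc, in replicate 2 for Thbs1, Thbs4 and Postn, and in replicate 3 for Tnc. Thbs4 and Sparc were lowest in NC replicate 4 and 0 h p.r. replicate 3, which were also the libraries with the lowest mean log2 level of tendon markers in their groups. Their profiles were the closest pair of the 8 genes (root mean square difference 0.257 over 8 libraries), and Thbs2 and Postn were the farthest apart (1.66).

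Marker lists of other tissues were set beside these genes. The cartilage markers (6 of 7 with a row) summed to 33.3, 10.3, 79.7 and 96.5 FPKM in NC and to 157, 264, 104 and 404 FPKM in 0 h p.r., lowest in NC replicate 2 and highest in 0 h p.r. replicate 4, as for Thbs2, Thbs3 and Fn1. Within 0 h p.r. the cartilage and bone sums were lowest in replicate 3. By mean log2 level the bone markers were lowest in replicate 1, as were those 3 genes, and the cartilage markers were lowest in replicate 3. Col10a1 was at 0 in NC replicate 2. The 6 bone markers summed to 10.6 to 48.9 FPKM in NC and 49.1 to 163 FPKM in 0 h p.r., with Bglap, Sost and Sp7 each at 0 in at least 1 library. Of these markers 4 bone and 5 cartilage genes were tested and 0 were past both thresholds (Sost, Sp7 and Col9a1 were under the filter), with 3 bone and 4 cartilage genes at an unadjusted p under 0.05 in limma. Of all tested genes 2.7% were past both thresholds and 22.6% had an unadjusted p under 0.05. The study, with DESeq2 on counts, lists Bglap, Ibsp, Dmp1, Sost, Phex, Sp7, Acan, Col2a1 and Sox9 among its differentially expressed genes at 0 h p.r. Phex, a bone marker at 0.227 FPKM in NC and 0.791 FPKM in 0 h p.r., had a limma adjusted p of 0.0243. It missed only the fold threshold, with a log2 fold change of 0.835 on the scale of log2(FPKM + 0.5). The ratio of its mean FPKM, without the added 0.5, was 3.49. The part of the bone and cartilage markers in the levels of Thbs1, Thbs2, Thbs3 and Fn1 was not tested.

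All 8 adipocyte markers had a lower mean log2 level in the group where Postn fell. Of these, 5 were called lower and 7 were lower without overlap, against 0.894% and 7.47% of all tested genes. Their part in the Postn result was not tested. With the skeletal muscle markers as a covariate, Thbs1 (log2 fold change 1.62, limma adjusted p 0.0100) and Postn (-1.29, limma adjusted p 0.0155) kept their calls. Platelets carry thrombospondin-1. Of 6 platelet markers 3 had a row, and their sum was 29.5 to 50.6 FPKM in NC and 20.6 to 49.6 FPKM in 0 h p.r., nearly all of it Pf4. Gp9 was at 0 in 0 h p.r. replicate 3, and the part of platelets in the Thbs1 result was not tested. The macrophage, endothelial, mural and Schwann cell markers had overlapping sums in the groups, and none of these genes was past both thresholds.

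**Figure D4:**
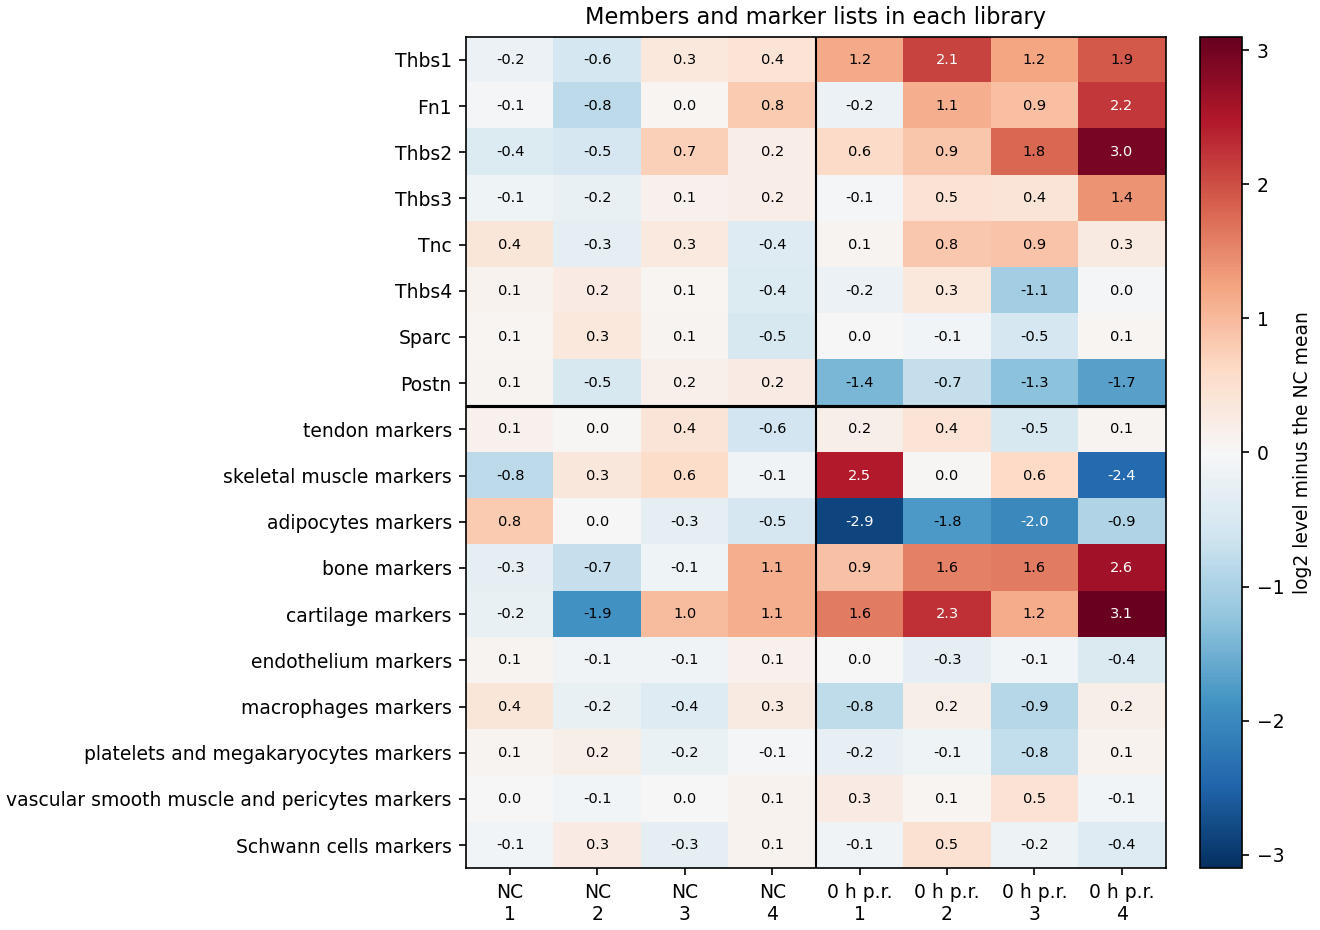
Log2 level of the 8 genes (upper rows) and mean log2 level of each marker list (lower rows) in every library, minus the NC mean. Red is above and blue below the NC mean. The mean levels of cartilage and bone markers and the levels of Thbs2, Fn1 and Thbs3 are highest in 0 h p.r. replicate 4, adipocyte markers and Postn are below the NC mean in all 0 h p.r. libraries, and skeletal muscle markers range widely within 0 h p.r.

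Other genes that act with these proteins were examined as lists. Of 15 other matricellular genes 13 were tested and 0 were called by limma (5 at an unadjusted p under 0.05, and 0 called by voom), with a median log2 fold change of 0.15 and 4 that did not overlap and were higher (Ccn1, Comp, Spp1 and Smoc2). Of all tested genes, 2.7% were called, 22.6% had an unadjusted p under 0.05 in limma, and 8.15% did not overlap and were higher. Spp1, which encodes osteopontin, had the lowest adjusted p of the list. It had 281, 455, 405 and 286 FPKM in NC and 489, 883, 773 and 1983 FPKM in 0 h p.r., higher in 4 of 4 libraries after running (log2 fold change 1.37, SE 0.39, limma adjusted p 0.0769). Spp1 was past both thresholds with the muscle covariate (limma adjusted p 0.0196) and with array weights (0.0182). The study, with DESeq2 on counts, lists Spp1 among its differentially expressed genes at 0 h p.r.

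Of the receptors 15 of 16 were tested and 1 was called, against 2.7% of all genes. Sdc4, which encodes syndecan-4, a heparan sulphate coreceptor for fibronectin, had 25.2, 22.6, 30.5 and 36 FPKM in NC and 93.9, 105, 74.9 and 131 FPKM in 0 h p.r. All libraries after running were far above the controls, with a log2 fold change of 1.80 (SE 0.20, limma adjusted p 0.00226). Itga5, the fibronectin-binding alpha5 integrin chain, chosen after its values were seen, was at 39.3 ± 8.33 FPKM in NC and 59.5 ± 3.12 FPKM after running (SD, n = 4). It was not called, since its log2 fold change of 0.62 was under a fold of 2 (limma adjusted p 0.0493). The median of the receptor list was 0.23.

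Of the load and TGF-beta signalling genes 14 of 15 were tested, 3 were called and all 3 were higher (1.8% of all tested genes were called higher), with a median log2 fold change of 0.50. Egr1, an immediate-early transcription factor of loaded tendon cells, rose from 15.8 ± 6.71 to 84.2 ± 24.8 FPKM (SD, n = 4), and its limma adjusted p was 0.00486 at a log2 fold change of 2.44. Atf3, a stress-induced transcription factor, rose from 10.1 ± 6.66 to 58.5 ± 12.0 FPKM (2.70, limma adjusted p 0.0117). Smad3, which carries TGF-beta signals to the nucleus, rose from 13.1 ± 2.22 to 28.3 ± 2.31 FPKM (1.09, limma adjusted p 0.00427, but 0.129 relative to the tendon markers). As for Thbs2, the SE relative to the tendon markers (0.373, against 0.137 without that scaling) reflects a spread pooled over genes. In the test against a fold of 1.5, Egr1 was still called (limma adjusted p 0.0305), and Atf3 (0.0873) and Smad3 (0.242) were not. Tgfb1 itself was 54.6 ± 8.97 FPKM in NC and 89.8 ± 23.0 FPKM in 0 h p.r. and was not called (limma adjusted p 0.0688).

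The fibre genes are collagens, fibrillin-1 and enzymes that process or crosslink matrix proteins. Of these, 0 of 11 were called by limma (and 0 by voom), against 2.7% of all tested genes, with a median log2 fold change of 0.05. At an unadjusted p under 0.05 in limma there was 1, against 22.6% of all tested genes. The lowest adjusted p was that of Lox, the collagen crosslinking enzyme, at 43.2 ± 9.48 FPKM in NC and 82.6 ± 33.4 FPKM in 0 h p.r. (SD, n = 4), not called at a log2 fold change of 0.88 and a limma adjusted p of 0.0987. Its levels were higher in 4 of 4 libraries after running than in any control, which held for 8.15% of all tested genes.

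**Figure D5:**
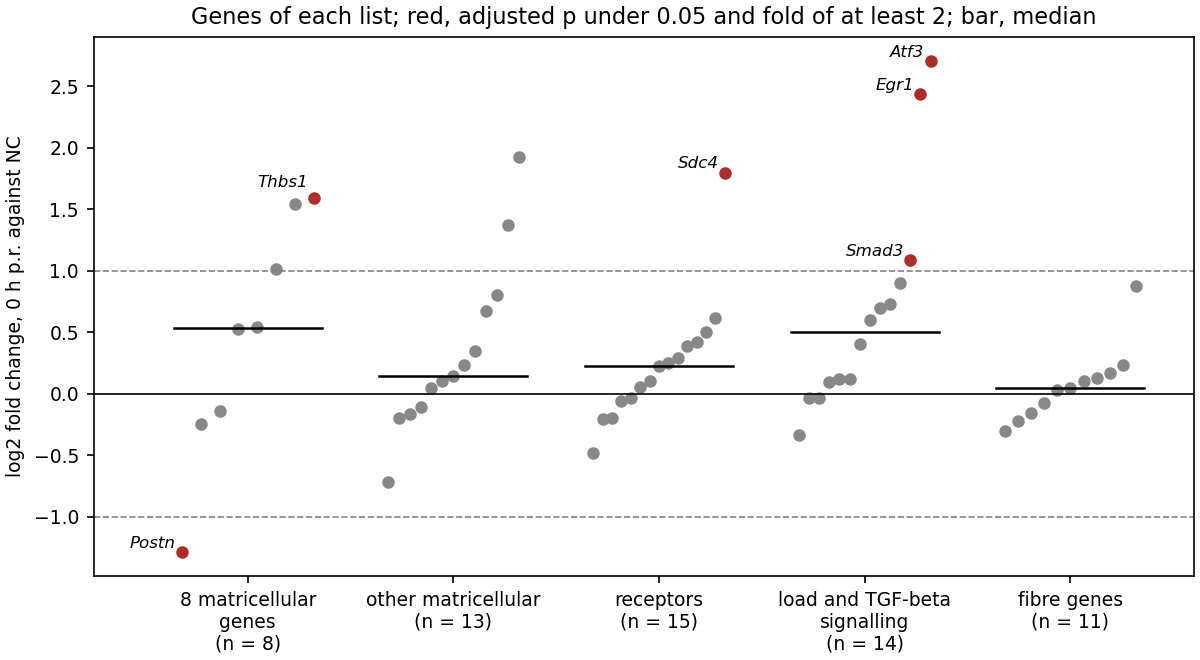
Log2 fold change (0 h p.r. against NC) of each tested gene in the 8 matricellular genes and in 4 lists of related genes, with a bar at the median of each list. Red marks an adjusted p under 0.05 with a fold of at least 2, dashed lines mark a fold of 2, and 3 of the 4 called genes in the related lists belong to load and TGF-beta signalling.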

How the data were processed

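Polyadenylated RNA of 8 Achilles tendon libraries (4 NC, 4 0 h p.r.) was sequenced. According to the methods and processing notes, the authors made stranded libraries, aligned reads to the rat build Rnor_6.0 with HISAT2 2.1.0, counted them per gene with featureCounts 1.6.3 and normalized and tested them with DESeq2 1.30.1. The deposited values used here are FPKM, one column per library. Columns with the authors' own comparison (log2 fold changes, p-values) were also deposited and were not used. The files gave no positions, so coordinates are those of RefSeq GRCr8 promoters.

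Libraries were grouped and numbered by their titles. Whole reads, recovered from the FPKM steps (15589 of 15590 genes, tolerance 0.02 reads), gave the depth, 10660131 to 17464752 reads per library, with a median of 218 per gene. Depth and counting errors cover counting only. A gene was tested if 4 or more libraries reached an FPKM of 0.5. Groups were compared on log2(FPKM + 0.5), which understates changes of low genes, with limma 3.58.1 in R 4.3.3 (lmFit, eBayes with trend, two-sided, Benjamini-Hochberg over 13863 genes). Single genes were also compared by an exact permutation test of mean log2 values in Python 3.11.15 with numpy 2.4.6 and pandas 2.3.3. The fit was tested on simulated data.

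Alternatives were pseudocounts of 0.1 and 1, no filter, a mean FPKM of at least 2, quantile normalization, levels relative to the tendon markers, a replicate block, a muscle marker covariate, array weights, voom with TMM factors on the recovered reads, protein-coding genes only, a test against a fold of 1.5, permutation on the linear scale, and leaving out each library in turn.

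The members and lists were chosen with earlier results of these data known. All members were named, with the called genes of each list (or that with the smallest adjusted p) and the 3 protein-coding genes most like each called member. Other genes were chosen after their values were seen. A gene of the load and TGF-beta signalling list is not reported here and was left out of its counts.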

Additional observations from a re-analysis of the deposited data

Results flagged for a closer look

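In 56 groups of 4 libraries, the highest and lowest values were examined for one that stood apart, and chance flags about 1 in 20 groups. One value did: the summed level of the 11 fibre genes was 3174 FPKM in 0 h p.r. replicate 3, against 5074 to 5348 FPKM in the other 3 libraries after running. The gap to the nearest library was 0.874 of the whole range, above Dixon's critical value for groups of 4. Thbs4, at 196 FPKM, and Sparc, at 4191 FPKM, were also at their lowest in this library. The tendon markers, which share Col1a1, Col1a2 and Col3a1 with the fibre genes, summed to 3633 FPKM there, the lowest of their group.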

How the results depend on the processing

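Thbs1 and Postn kept their direction under every alternative run and stayed past both thresholds in 10 of the alternatives that kept all 8 libraries. The exceptions were the replicate block and the test against a fold of 1.5, each of which left 0 of the 8 genes called, past both thresholds or by adjusted p alone, against 2. Leaving out each library in turn gave 0 to 2 called genes by either rule: 0 without NC replicate 1 and 1 each without 0 h p.r. replicate 2 or 0 h p.r. replicate 3. Over all tested genes the count of 374 became 60 in the test against a fold of 1.5, 217 without NC replicate 1, 195 without 0 h p.r. replicate 2 and 201 without 0 h p.r. replicate 3. It rose to 516 without 0 h p.r. replicate 4, 505 with array weights, 440 with the muscle covariate and 417 with voom. The other matricellular genes had 1 call in place of 0 relative to the tendon markers, with the muscle covariate and with array weights. The log2 fold change of Thbs4 was -0.435 to 0.035 with single libraries left out, against -0.25, and it turned positive without 0 h p.r. replicate 3. The causes were not tested. The lowest count behind a member value was 314 reads, a counting error of 5.64%.

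The replicate numbers are shared by the groups, but same-numbered libraries did not deviate together (Pearson's r across genes -0.14, -0.07, 0.07 and 0.01). These values show no shared deviation by number, and they cannot tell whether the samples were handled in numbered pairs. With the number as a block, 212 genes were called in place of 374, the limma adjusted p was 0.0531 for Thbs1 and 0.0810 for Postn, and 0 of the 8 genes were called.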

Other observations

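The uncalled genes also had close neighbours in profile, chosen here after their values were seen and given as descriptions over 8 libraries. Fn1 was closest to PCOLCE2, which encodes an enhancer of procollagen processing (root mean square difference 0.216, 43.1 ± 15.3 FPKM in NC and 119.8 ± 83.8 FPKM in 0 h p.r., SD, n = 4), and to Prg4, which encodes lubricin, the lubricant of gliding surfaces (0.251, 373 ± 212 and 684 ± 286 FPKM). Thbs2 was closest to Anxa8 (0.266), an annexin gene, and next to Itga10 (0.309), a collagen-binding integrin chain of cartilage. Thbs3 was closest to Reck (0.095), a membrane-anchored inhibitor of matrix metalloproteinases, with 31.8 ± 3.25 FPKM in NC against 55.1 ± 29.3 FPKM after running.

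The ratio of Fn1 to Thbs4 was 0.352 to 1.71 in NC and 0.735 to 3.41 in 0 h p.r., so these ranges overlapped. The ratio of Thbs1 to Thbs4 was 0.0761 to 0.237 in NC and 0.342 to 0.663 in 0 h p.r., without overlap.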
